A study of Mus musculus with 12 samples.

Results

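The 9 mouse genes Cd55, Mdga2, Whrn, Dcxr, Mreg, Svop, Cacna2d1, Abca7 and Abhd4 were examined because their signals lay below those of normoxia in cells grown in hypoxia, both with and without a gamma-secretase inhibitor. They were taken by gene symbol in the platform annotation, with every probe of each gene. They make up 9 of the 16593 genes named on the array, and 14 of its 25697 probes. Of these 14 probes, 12 passed the filter on dim probes (a probe had to be detected at p under 0.05 by 3 or more arrays), as did 14599 probes for 9879 genes in all. The 2 probes left out, 1 for Mdga2 and 1 for Abca7, were detected on 0 and 1 of the 12 arrays. Because the difference between hypoxia and normoxia chose these genes, that difference is given for them as a description, without a test.

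The cells came from CCE, a wild-type mouse embryonic stem cell line of strain 129/Sv, so every group rests on 1 line. Embryoid bodies (floating aggregates of differentiating cells) grew for 4 days, cells bearing Flk1 were sorted, and these were plated on collagen type IV for another 4 days before cells bearing CD31 were sorted for RNA, with over 50000 cells per sample. The groups were hypoxia (1.5 to 2% oxygen) with 4 umol/l L-685.458, normoxia (21% oxygen) with 4 umol/l L-685.458, hypoxia without it, and normoxia without it, each with 3 arrays from biological replicates numbered 1 to 3. L-685.458 inhibits gamma-secretase, the protease that releases the active fragment of Notch receptors. Flk1, the product of Kdr, is a receptor for vascular endothelial growth factor that marks vascular progenitors. CD31, the product of Pecam1, is an adhesion protein of endothelial cells that some blood cells and undifferentiated mouse embryonic stem cells carry too.

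Cells sense low oxygen mainly through the hypoxia-inducible factors (HIF), transcription factors that oxygen-dependent hydroxylation keeps unstable in normal air. HIF is best known as an activator that binds a short core motif beside genes of glycolysis and blood vessel growth, and many other transcripts decline in low oxygen by routes that do not need HIF at the gene itself. The 9 genes share no single pathway. Several encode proteins of the cell surface or of membranes: a complement regulator, an inhibitor of synaptic adhesion, a calcium channel subunit and 2 transporter proteins. The others are a scaffold, a factor of organelle transport and a pair of metabolic enzymes.

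Each array detected 13085 to 13901 probes, and its mean intensity was 522 to 629. Signals are given as log2 values after background correction and quantile normalization, and the lowest signal that an array called detected was 5.08 to 5.24. Brightness also depends on the probe, so levels are compared between groups for 1 probe at a time. An offset added before the logarithm makes the changes of dim probes too small. Of the endothelial markers, Pecam1 averaged 12.23, 12.09, 12.44 and 12.17 in the order of groups given above, and Cdh5 (VE-cadherin) averaged 10.71, 10.30, 10.98 and 10.61. Kdr was detected on all 12 arrays but was dim, at 5.63, 5.97, 5.89 and 5.54.

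The label of most lowered genes held for 7 of the 9. When the 9879 genes were ranked by their change, the falls of Cd55, Mdga2, Whrn, Dcxr, Mreg, Svop and Cacna2d1 ranked 6 to 20 with the inhibitor and 6 to 23 without it. Abca7 ranked 269 with and 214 without the inhibitor, and Abhd4 ranked 394 and 456, so these 2 genes were lower in hypoxia by less than many others. A signal lower by at least 1 log2 unit in both comparisons was found for 24 of 9879 genes (0.243%), of which 7 are the members named first. Spon2 and Rab3b, named after their values were seen, lay below Cd55 by this measure. The median change of all 9879 genes was -0.01 log2 units in both comparisons.

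**Figure D1:**
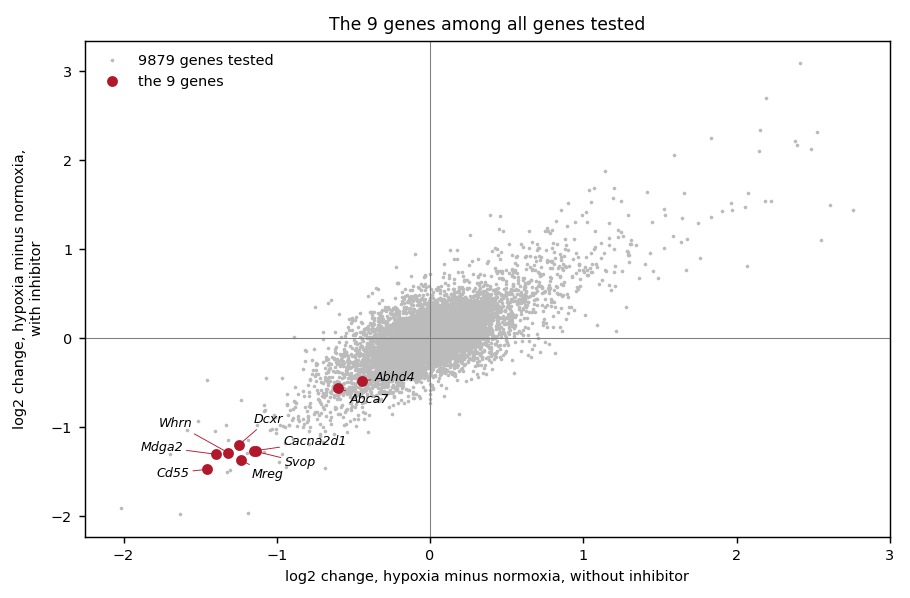
Log2 change between hypoxia and normoxia for 9879 genes (grey) without the inhibitor (horizontal axis) and with it (vertical axis), with the 9 genes in red. Each point is the brightest kept probe of a gene. Abca7 (-0.56 with and -0.60 without the inhibitor) and Abhd4 (-0.48 with and -0.44 without) lie at the edge of the main cloud, and the other 7 lie below -1 on both axes. The genes were chosen for these values.

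Cd55 encodes decay-accelerating factor, a lipid-anchored surface protein that speeds the decay of complement convertases and so shields cells from complement. With the inhibitor, its signal was 6.52, 6.54 and 6.26 on the hypoxia arrays, against 8.01, 7.70 and 8.03 on the normoxia arrays (replicates 1, 2 and 3, as in all such lists). Without the inhibitor it was 6.14, 6.30 and 7.11 in hypoxia, against 7.81, 8.03 and 8.07 in normoxia. The hypoxia values lay below every normoxia value in both comparisons, and hypoxia replicate 3 without the inhibitor stood above the other hypoxia arrays. The change was -1.47 with the inhibitor and -1.46 without it (SE 0.22 for each), which leaves 36.0% and 36.5% of the normoxia signal. Leaving out hypoxia replicate 3 made the change without the inhibitor -1.75. From sorted populations, fewer cells that carry a transcript and less of it per cell cannot be told apart, for this gene and the others.

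Mdga2 encodes a lipid-anchored immunoglobulin-domain protein that binds neuroligins and keeps them from neurexins, which limits synapse formation. Its brightest probe read 6.06, 5.77 and 5.45 in hypoxia with the inhibitor, against 6.97, 6.89 and 7.33 in normoxia with it. Without the inhibitor the values were 5.65, 5.41 and 5.17 in hypoxia, against 6.50, 6.73 and 7.19 in normoxia. No hypoxia value reached a normoxia value, and replicate 3 had the lowest hypoxia and the highest normoxia signal in each pair of groups. On hypoxia replicate 3 without the inhibitor the probe was not detected, so 2 of 3 arrays of that group measured it. The change was -1.30 with the inhibitor and -1.40 without it (SE 0.21). Another kept probe of Mdga2 was not well above background on any of the 6 hypoxia arrays, but was detected on 3 of 3 normoxia arrays with the inhibitor and on 1 of 3 without. Its signal was at least 1.33-fold lower in hypoxia with the inhibitor. As this probe passed the filter on dim probes through normoxia arrays alone, that value is a description and no separate support. Without the inhibitor its groups overlapped, and no fold is given. The changes of Mdga2 depended on how background was handled: they were -0.92 with and -0.94 without the inhibitor when no background model was used, and -1.66 and -1.92 in the authors' processed table.

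Cacna2d1 encodes the alpha-2/delta-1 subunit of voltage-gated calcium channels, which brings the pore-forming subunit to the membrane. With the inhibitor it read 5.91, 5.95 and 6.39 in hypoxia, against 7.22, 7.54 and 7.29 in normoxia. Without the inhibitor it read 6.35, 6.13 and 6.63 in hypoxia, against 7.16, 7.26 and 8.13 in normoxia. Normoxia replicate 3 without the inhibitor was the highest of the 12 arrays, and hypoxia stayed below normoxia on every array of both comparisons. The change was -1.27 with the inhibitor and -1.15 without it (SE 0.24).

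The remaining membrane proteins are Svop, a transporter-like protein first found on synaptic vesicles, and Abca7, a transporter of the ABC family that moves phospholipids across membranes. Svop read 7.35, 7.11 and 7.60 in hypoxia with the inhibitor, against 8.41, 8.55 and 8.91 in normoxia with it. Without the inhibitor Svop read 7.58, 7.31 and 7.45 in hypoxia, against 8.35, 8.36 and 9.03 in normoxia. Normoxia replicate 3 was again the highest array, and the groups did not overlap. The change of Svop was -1.27 with and -1.14 without the inhibitor (SE 0.20).

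Abca7 differed less but with little spread. Its brightest probe read 8.54, 8.61 and 8.65 in hypoxia with the inhibitor, against 9.18, 9.16 and 9.14 in normoxia with it. Without the inhibitor the values were 8.60, 8.43 and 8.78 in hypoxia, against 9.18, 9.13 and 9.29 in normoxia. All hypoxia values lay below all normoxia values, and the change was -0.56 with and -0.60 without the inhibitor (SE 0.11), or 67.7% and 66.1% of normoxia. A dimmer probe of Abca7 differed by -0.65 with the inhibitor and -0.42 without it (SE 0.23). Its values were 5.51, 5.61 and 5.28 in hypoxia with the inhibitor, against 6.42, 6.14 and 5.80 in normoxia with it, with no overlap. Without the inhibitor the dimmer probe read 5.25, 6.09 and 5.80 in hypoxia, against 5.82, 6.19 and 6.40 in normoxia, and here the groups overlapped.

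Whrn encodes whirlin, a scaffold protein of hair cell stereocilia and photoreceptors whose loss causes deafness. With the inhibitor it read 6.04, 6.14 and 6.16 in hypoxia, against 7.57, 7.50 and 7.13 in normoxia. Without the inhibitor it read 5.97, 5.71 and 6.64 in hypoxia, against 7.48, 7.52 and 7.27 in normoxia. As for Cd55, hypoxia replicate 3 without the inhibitor stood above the other hypoxia arrays, and the groups did not overlap. The change was -1.28 with and -1.32 without the inhibitor (SE 0.21). With replicates 1 and 2 only, a choice made after the values were seen, it was -1.44 and -1.66.

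Mreg encodes melanoregulin, which acts in the transport and transfer of melanosomes and in lysosome maturation. With the inhibitor it read 7.70, 7.70 and 7.22 in hypoxia, against 9.18, 8.94 and 8.60 in normoxia. Without the inhibitor it read 7.80, 7.94 and 8.05 in hypoxia, against 9.18, 9.21 and 9.10 in normoxia. The gap between the lowest normoxia and the highest hypoxia array was 0.90 with and 1.05 without the inhibitor. The change was -1.37 with the inhibitor and -1.23 without it (SE 0.17).

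Of the enzymes, Dcxr encodes dicarbonyl and L-xylulose reductase, which reduces reactive dicarbonyls and a sugar of the uronate pathway. Its brighter probe read 9.49, 9.46 and 8.94 in hypoxia with the inhibitor, against 10.38, 10.49 and 10.61 in normoxia with it. Without the inhibitor it read 9.26, 9.25 and 9.34 in hypoxia, against 10.54, 10.49 and 10.56 in normoxia. The 3 values of each group without the inhibitor lay within 0.1 of one another, and the gap between these groups was 1.15. The change was -1.20 with and -1.25 without the inhibitor (SE 0.14). The other probe of Dcxr gave -1.22 and -1.12 (SE 0.16), with no overlap of the groups in either comparison, so both probes of this gene lay lower by a like amount.

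Abhd4 encodes a hydrolase that removes acyl chains from N-acyl phospholipids on the way to N-acyl ethanolamines. With the inhibitor it read 8.42, 8.60 and 8.37 in hypoxia, against 8.90, 8.88 and 9.05 in normoxia. Without the inhibitor it read 8.57, 8.56 and 8.60 in hypoxia, against 9.13, 8.87 and 9.07 in normoxia. The groups did not overlap, but the gaps, 0.28 with and 0.27 without the inhibitor, were the narrowest of the 9 brightest probes. The change was -0.48 with and -0.44 without the inhibitor (SE 0.11), or 71.7% and 73.5% of normoxia.

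**Figure D2:**
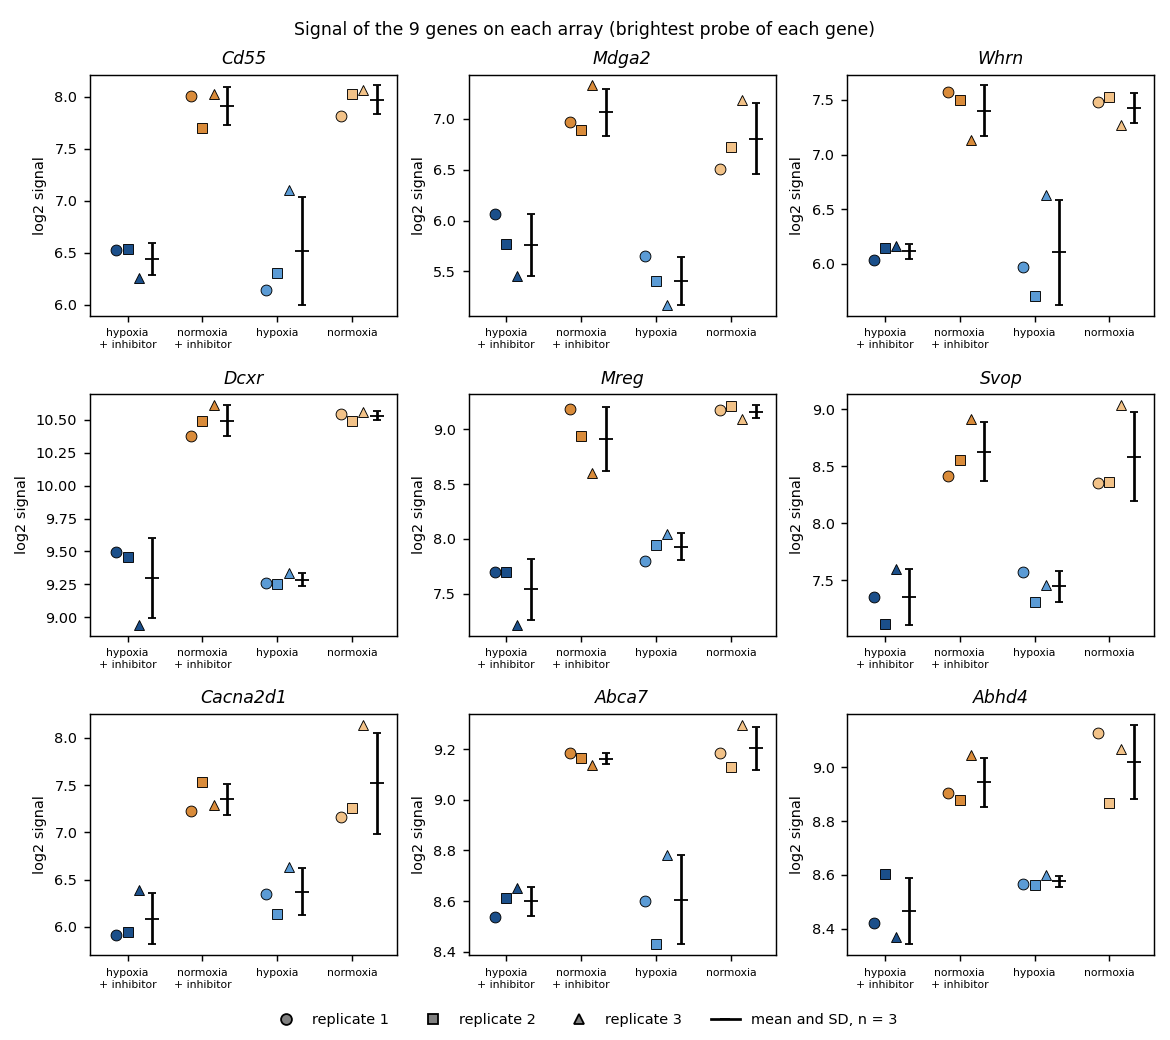
Log2 signal of the brightest kept probe of each of the 9 genes on each of the 12 arrays, by group, with the mean and SD of 3 arrays beside the points. Marker shapes give the replicate number. In all 9 panels the hypoxia arrays lie below the normoxia arrays with the inhibitor and without it.

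For the brightest probes of all 9 genes, hypoxia lay below normoxia in 3 of 3 same-numbered pairs with the inhibitor and in 3 of 3 without it, and no groups overlapped. Among all 14599 probes, hypoxia lay wholly below normoxia for 8.28% with the inhibitor and 10.1% without it, and limma called 0.404% and 0.39% lower (adjusted p under 0.05). As the genes were chosen on these contrasts, nothing is read from their count. With the replicate number as a block, 258 in place of 125 probes were called in either direction with the inhibitor (125 are 0.856%) and 319 in place of 148 (1.01%) without it. The difference between same-numbered arrays varied widely for Mdga2, at -0.91, -1.13 and -1.87 with the inhibitor and -0.86, -1.32 and -2.01 without it, and for Whrn, at -1.53, -1.35 and -0.97 with and -1.51, -1.82 and -0.63 without it. It varied little for Abca7, at -0.65, -0.55 and -0.49 with and -0.58, -0.70 and -0.51 without it.

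**Figure D3:**
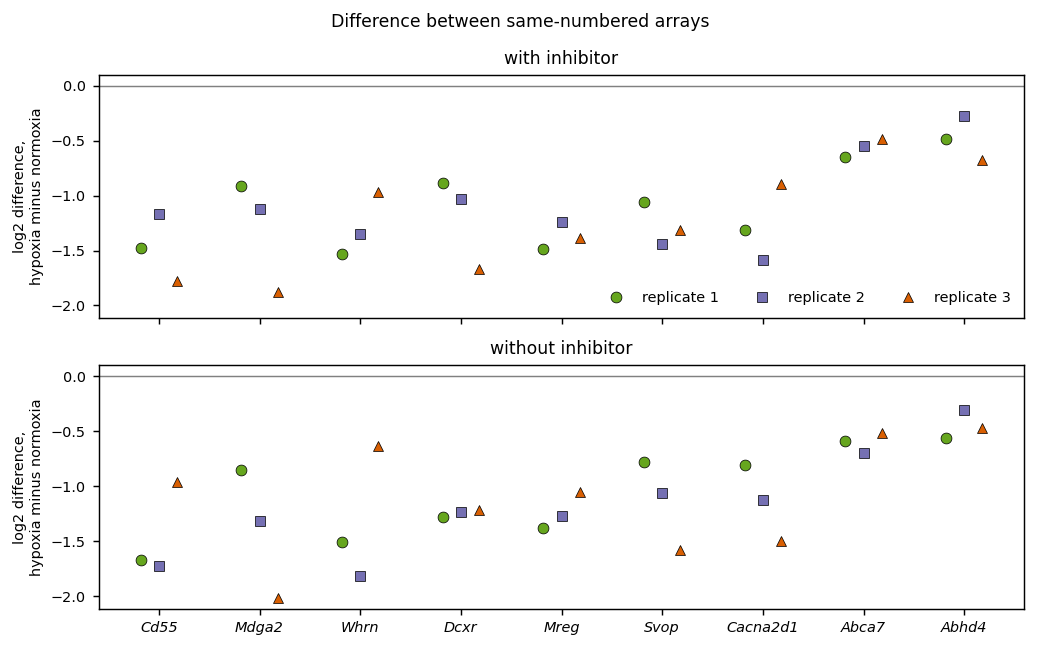
Difference in log2 signal between the hypoxia and the normoxia array of the same replicate number, for the brightest probe of each gene, with the inhibitor (top) and without it (bottom). All 54 points lie below 0, and replicate 3 is the farthest from 0 for Mdga2 in both panels and the nearest to 0 for Whrn in both.

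The signed log2 change with the inhibitor, minus that without it, lay between -0.14 (Mreg, whose difference was larger with the inhibitor) and 0.09 (Mdga2, whose difference was smaller with it) for the 9 genes, with SEs of 0.16 to 0.34. Each of these differences was smaller than its SE, which leaves room for a modest dependence on the inhibitor in either direction. Since both comparisons chose the genes, these values too are a description.

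Few markers of other cells passed the test between oxygen levels. The summed linear signal of 15 measured markers of pluripotent stem cells was 5520 to 10507 in hypoxia with the inhibitor, against 5826 to 23341 in normoxia with it, and 12087 to 13837 in hypoxia without it, against 13527 to 26736 in normoxia. The ranges overlapped in both comparisons, in each through the lowest normoxia array. The median array of each group had 10419 in hypoxia and 22911 in normoxia with the inhibitor, and 13124 and 26500 without it. The median change of the 15 markers was -0.76 with and -0.44 without the inhibitor, and 0 of the 15 passed the test in either comparison. Pou5f1 averaged 7.83 in hypoxia and 8.89 in normoxia with the inhibitor, and 9.04 in hypoxia and 9.44 in normoxia without it. Their part in the lower signals of the 9 genes was not tested. The summed signal of the 15 measured endothelial markers was 75381 to 94442 in hypoxia with the inhibitor, against 79917 to 107650 in normoxia with it, and 91761 to 114860 in hypoxia without it, against 90330 to 111406 in normoxia. Of these 15, 1 rose without the inhibitor and 0 fell, and 0 passed with it. Acta2, the smooth muscle actin, was bright throughout, at 15.98, 16.03, 15.84 and 15.98 in hypoxia with the inhibitor, normoxia with it, hypoxia and normoxia. Of 17 markers of blood cells, 1 passed the test upward and 0 downward with the inhibitor, and 1 upward and 1 downward without it, and none of the 8 mural, 6 cardiac, 4 endodermal and 4 neural markers measured passed in either comparison. Ptprc, Myh6, Afp and Sox1, which define blood, heart muscle, endoderm and neural cells, had no probe that passed the filter on dim probes.

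Whether the genes related to each member moved too was tested with limma over all 14599 probes. Of the 9 lists of relatives, members left out, few genes passed. Of 9 complement genes measured beside Cd55, 0 passed, with a median change of -0.07 with and -0.08 without the inhibitor. Of 8 genes of synaptic adhesion beside Mdga2, 0 passed (medians -0.23 and -0.22). Among these 8, the paralog Mdga1, dim on these arrays, differed by 0.05 and 0.09 with adjusted p-values of 0.958 and 0.939. Beside Cacna2d1, 0 of 6 channel subunits passed (medians -0.36 and 0.04), among them the paralog Cacna2d3 at -0.41 and 0.16 (adjusted p = 0.529 and 0.870). For scale, of all 9879 genes 53 rose and 50 fell with the inhibitor, and 68 rose and 46 fell without it.

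Among 16 synaptic vesicle genes beside Svop, 1 fell in each comparison and 0 rose. This was Stx1a, encoding syntaxin 1A of the fusion machinery, which averaged 8.08 in hypoxia and 8.77 in normoxia with the inhibitor, a change of -0.68 (SE 0.13, adjusted p = 0.0379). Without the inhibitor Stx1a averaged 8.10 in hypoxia and 8.84 in normoxia, a change of -0.73 (adjusted p = 0.0233). The call was lost when the fit held only the groups compared (adjusted p = 0.140 with and 0.0828 without the inhibitor), and over all alternatives the adjusted p ran from 0.00624 to 0.140 with and from 0.00543 to 0.118 without it. Rab3b, a vesicle GTPase that lay below Cd55 in both comparisons, is on this list and did not pass (adjusted p = 0.0810 with and 0.153 without the inhibitor); its probe was not detected on any hypoxia array with the inhibitor. Beside Abca7, 8 genes were measured, mainly ABCA and ABCG transporters but also Abcb4 and Apoe, which are neither. Of these 8, 0 passed in either comparison (medians 0.16 and -0.08). That list held 4 of the closer relatives, Abca2, Abca3, Abca5 and Abca15, with changes of -0.24 to 0.30 with the inhibitor and -0.18 to 0.16 without it. Abca2 and Abca15, the ends of the range with the inhibitor, lay near the detection limit. With the inhibitor Abca2 was detected on 1 of 3 hypoxia and 3 of 3 normoxia arrays, and Abca15 on 1 of 3 and 0 of 3.

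Of 7 genes of the whirlin and Usher network, 1 fell with the inhibitor and 0 passed without it. Espn, encoding the actin-bundling protein espin, averaged 6.35 in hypoxia and 7.32 in normoxia with the inhibitor, a change of -0.97 (SE 0.20, adjusted p = 0.0494). The adjusted p of Espn with the inhibitor ran from 0.0100 to 0.211 over the alternatives, and was 0.0651 with median scaling. Without the inhibitor Espn differed by -0.55 (adjusted p = 0.282). Of 25 genes of melanosome and lysosome-related traffic beside Mreg, 0 fell and 1 rose. Gpnmb, encoding a melanosomal and lysosomal glycoprotein, averaged 11.39 in hypoxia and 8.30 in normoxia with the inhibitor, a change of 3.09 (SE 0.39, adjusted p = 0.00413). Without the inhibitor Gpnmb averaged 11.01 in hypoxia and 8.60 in normoxia, a change of 2.42 (adjusted p = 0.0185), with an adjusted p of 0.0923 when normoxia replicate 2 was left out.

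Of 15 genes of carbonyl reduction and the uronate pathway beside Dcxr, 0 passed (median -0.21 in each comparison), and 11 with and 12 without the inhibitor had negative values. Among them Cbr3, named after its values were seen, differed by -1.45 with and -0.94 without the inhibitor (adjusted p = 0.359 and 0.600). Of 22 alpha/beta hydrolases and N-acyl ethanolamine enzymes beside Abhd4, 0 passed (medians 0.00 and -0.02). As a reference for the oxygen treatment itself, 31 known targets of HIF were measured: 7 rose with the inhibitor and 10 without it, and 0 fell. Egln3, a prolyl hydroxylase induced by HIF, averaged 11.80 in hypoxia and 9.69 in normoxia with the inhibitor, and 11.79 in hypoxia and 9.64 in normoxia without it.

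**Figure D4:**
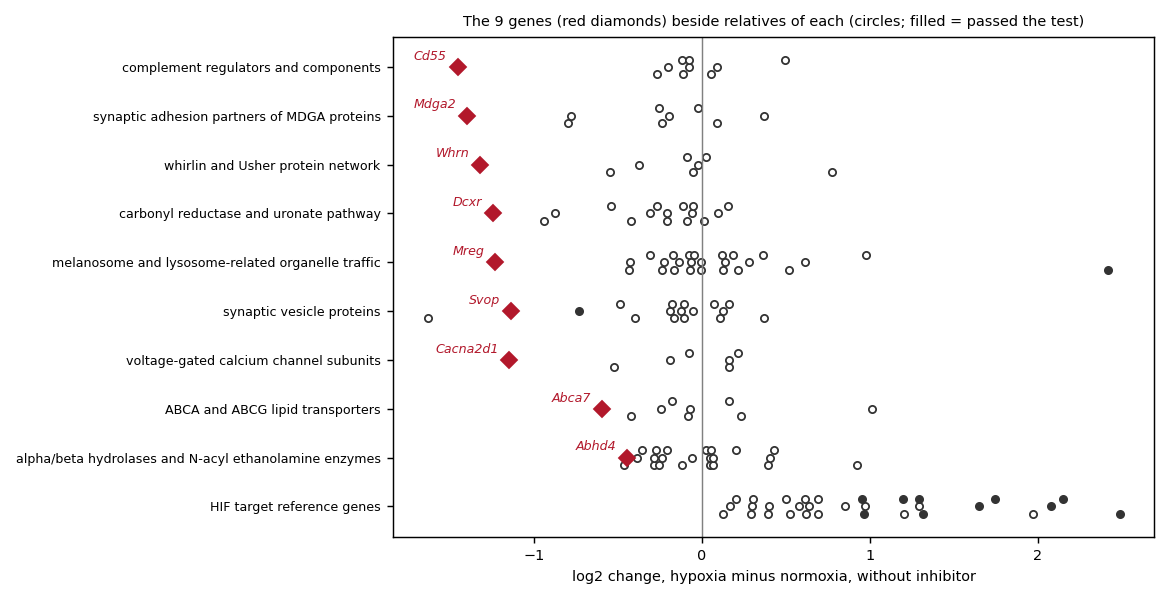
Log2 change between hypoxia and normoxia without the inhibitor for the measured genes of each list (circles, filled where the adjusted p was under 0.05) and for the member each list belongs to (red diamonds, chosen for this value and not tested). The filled circles outside the row of HIF targets are Gpnmb at 2.42 and Stx1a at -0.73.

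The choice of genes did not use the inhibitor's effect averaged over both oxygen levels, and limma called 0 of the 9 genes for it. It comes from the same 12 arrays as the 2 hypoxia contrasts, and same-numbered arrays varied together to unequal degrees, so it is not strictly independent of them. Of all 14599 probes, 1 was called (0.00685%), while 633 had an unadjusted p under 0.05. That probe, named after its value was seen, reads Hey1, a repressor induced by Notch signalling. It averaged 6.89 in hypoxia with the inhibitor and 9.15 in hypoxia without it, and 6.97 in normoxia with the inhibitor and 8.84 in normoxia without it, a change of -2.06 (SE 0.21, adjusted p = 0.00799). This call did not hold under every setting: with the replicate block, and without hypoxia with inhibitor replicate 1, 0 probes were called.

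Among the 9 genes the averaged inhibitor effect ran from -0.32 for Mreg to 0.31 for Mdga2. For Mreg the 95% interval was -0.58 to -0.06 (limma, adjusted p = 0.999). For Mdga2 the interval was -0.02 to 0.63 (adjusted p = 0.999). Cacna2d1 had -0.23 (interval -0.60 to 0.15), Abhd4 -0.09 (interval -0.27 to 0.08) and Cd55 -0.07 (interval -0.40 to 0.27). Whrn, Dcxr, Svop and Abca7 had values from -0.02 to -0.01, and median scaling turned the sign of all 4. Their intervals ran from -0.34 at the lowest to 0.31 at the highest. Over the 9 genes, intervals thus leave room for effects of up to 0.63 log2 units, against hypoxia differences of -0.44 to -1.47.

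Within 1 oxygen level the inhibitor comparisons share arrays with the contrasts that chose the genes, and 0 of 9 genes were called in either. In hypoxia, Mreg read 7.70, 7.70 and 7.22 with the inhibitor, against 7.80, 7.94 and 8.05 without it, a change of -0.39 (SE 0.17, adjusted p = 0.998). These 2 groups did not overlap, as for 4.9% of all probes in that direction. In normoxia the change of Mreg was -0.25 (SE 0.17, adjusted p = 1), and the groups overlapped. Over all probes the counts of calls were 0 in hypoxia and 0 in normoxia, with 589 and 299 probes at an unadjusted p under 0.05. In hypoxia 4 probes were called from the authors' processed table, and 1 when no background model was used. Mdga2 differed by 0.35 in hypoxia and 0.26 in normoxia (SE 0.21), with overlapping groups in both.

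**Figure D5:**
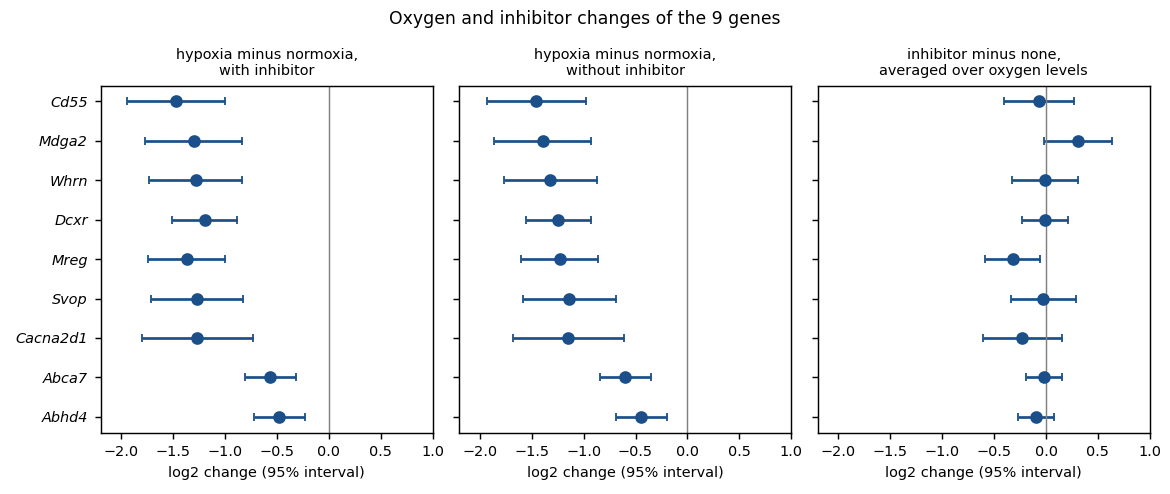
Log2 change of the 9 genes with 95% intervals: hypoxia minus normoxia with the inhibitor (left) and without it (middle), and inhibitor minus none averaged over oxygen levels (right). The left and middle panels chose the genes and are shown as a description. On the right, 8 of 9 intervals cross 0, the exception being Mreg at -0.32, which was not called after adjustment.

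Replicate 3 stood apart from replicates 1 and 2 across the arrays. Within groups, 2862 of 14599 probes (19.6%) differed between it and the other replicates. The labels do not say what a replicate number shares. Of the 9 genes 1 was called: Svop was higher in replicate 3 by 0.37 (SE 0.11, adjusted p = 0.0337). Leaving out normoxia replicate 3 made this 0.27 (adjusted p = 0.145), and 9 of the 12 single-array omissions ended the call. Cacna2d1 was next, at 0.42 (SE 0.13, adjusted p = 0.05004, just over the threshold), and passed with only probes detected on all arrays (adjusted p = 0.0420) or with median scaling (adjusted p = 0.0484). Mreg had -0.22 (SE 0.11, adjusted p = 0.180). Of the 15 pluripotency markers, 3 rose and 10 fell in replicate 3, with a median of -1.07. Of the 17 blood markers 1 rose and 7 fell (median -0.54). None of the 8 mural and 6 cardiac markers rose, and 2 of each list fell. Of the other lists, 2 of 15 endothelial and 1 of 4 endodermal markers rose, 0 of either fell, and 0 of 4 neural markers passed. Of all 9879 genes, 10.8% fell. The markers' part in the replicate differences of the 9 genes was not tested.

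Across the 12 arrays the 36 pairs of members correlated with Pearson r from 0.81 (Mdga2 and Mreg) to 0.97 (Whrn and Abca7), with a median of 0.91. All 12 points share the oxygen difference that chose the genes, so these values describe that choice. Once each group's mean was removed, the correlations ran from -0.71 (Mreg and Svop) to 0.76 (Svop and Cacna2d1), with a median of 0.16, and 15 of the 36 were negative. Among all other genes, the pattern nearest to the mean of the standardized members over 12 arrays was that of Tmc7 (r = 0.99), then Gucy1b1 (0.97), Ccpg1 (0.97), Fndc10 (0.97) and Lrrc28 (0.96). The most opposite patterns were those of Dusp26 (-0.99), Egln3 (-0.98) and Trf (-0.97). Taken singly, Cd55 was most like Tbc1d8 (0.96), Mdga2 most like Pigf (0.97), Whrn most like Rbm38 (0.96), Dcxr most like Ercc5 (0.98) and Mreg most like Fam110a (0.98). Svop and Abca7 were each most like Tmc7 (0.97), Cacna2d1 most like Lrrc3 (0.98) and Abhd4 most like Lrrc28 (0.96). These genes, too, share the difference between oxygen levels over the same arrays.

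Since the 9 genes were lower together, the 250 bases before the RefSeq start of each gene (build GRCm38.p6) were searched for 5 short motifs on both strands. A window was matched for 8 of the 9, all but Svop. Mreg and Abhd4 have a second RefSeq start, and the start listed first was used for each gene, members and all others alike. The windows of Mdga2 and Abhd4 are shown because they hold ACGTG, a form of the core of the HIF binding site. Those of Cd55 and Dcxr, which do not hold ACGTG and whose genes differed by more than Abhd4, are shown beside them. Capitals mark ACGTG (the core of the HIF binding site), GGGCGG (a GC box) and CCAAT on either strand, and the sequences run 5′ to 3′ on the strand of the gene.
Cd55 (chr1:130462745-130462994, minus strand): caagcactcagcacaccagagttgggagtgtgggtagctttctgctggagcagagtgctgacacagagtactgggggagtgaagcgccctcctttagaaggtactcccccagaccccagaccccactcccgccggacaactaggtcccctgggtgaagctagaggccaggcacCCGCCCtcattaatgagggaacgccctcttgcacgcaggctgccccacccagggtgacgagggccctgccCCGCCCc
Dcxr (chr11:120727285-120727534, minus strand): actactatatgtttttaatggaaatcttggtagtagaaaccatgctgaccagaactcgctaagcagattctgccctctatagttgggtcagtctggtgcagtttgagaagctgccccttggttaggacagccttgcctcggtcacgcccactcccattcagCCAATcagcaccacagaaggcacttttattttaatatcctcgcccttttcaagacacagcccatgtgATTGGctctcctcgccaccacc
Mdga2 (chr12:67222550-67222799, minus strand): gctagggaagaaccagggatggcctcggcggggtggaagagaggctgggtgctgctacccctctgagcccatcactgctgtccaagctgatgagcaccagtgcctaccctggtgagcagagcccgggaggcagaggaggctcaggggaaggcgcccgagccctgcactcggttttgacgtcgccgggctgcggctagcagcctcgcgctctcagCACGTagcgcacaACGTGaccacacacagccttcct
Abhd4 (chr14:54253879-54254128, plus strand): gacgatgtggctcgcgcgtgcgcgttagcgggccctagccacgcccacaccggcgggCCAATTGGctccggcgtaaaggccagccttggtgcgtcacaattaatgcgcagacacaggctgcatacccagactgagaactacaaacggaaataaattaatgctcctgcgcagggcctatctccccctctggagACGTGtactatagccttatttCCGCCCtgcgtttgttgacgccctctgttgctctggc

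Of the HIF core, only the form ACGTG was counted. It was present in 2 of these 8 windows, against 17.6% of 17492 protein-coding genes and 51.5% of 33 known HIF targets. In Mdga2 it occurs once on each strand, the first at 36 bases before the start, and in Abhd4 once, at 58 bases before the start. The window of the second start of Abhd4 (chr14:54259033-54259282) has 0 sites of ACGTG and 0 of CCAAT, and that of Mreg has 0 sites of ACGTG at either start. The longer CACGTG, which contains ACGTG, was in 0 of 8 windows and in 6.64% of all. A GC box was in 5 of 8 (42.7% of all), CCAAT in 4 of 8 (36.3% of all) and TATAAA in 0 of 8 (12.4% of all). The windows differed in base composition, with 36 CG dinucleotides for Cacna2d1 and 5 for Dcxr. A match describes the letters of a window, and a window without one says nothing about a factor.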

How the data were processed

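The data are 12 Illumina mouse bead arrays, each of 1 sample. The deposited non-normalized table gives for each array, per the file headers, a linear intensity and a detection p-value of every probe. Per the submitters' processing notes the software was BeadStudio, with no version stated. The deposited intensity was already background-subtracted, since 23.3% of its values are below 0, and the deposited detection p-values are ranks among 798 negative controls. The authors' processed table, an intensity floored at 20 (45.5 to 48.0% of values per array), was used only as an alternative, and how it was scaled is not stated.

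Here limma 3.58.1 (R 4.3.3) fitted a normal-exponential background from the detection p-values, added an offset of 16, took log2 and normalized by quantiles. Probes detected (p under 0.05) on at least 3 of the 12 arrays were kept, and a gene was represented by its kept probe of highest mean signal. Of 25697 probes, 23978 carry 1 gene symbol in the platform annotation, 0 carry several and 1719 carry none. Each probe was fitted as 4 group means (8 residual degrees of freedom, before variances were moderated) with Benjamini-Hochberg adjustment over 14599 probes and a threshold of 0.05. Only this fit was tried on simulated signals, which had independent noise and no replicate differences. Background correction, normalization and the filter were not tested that way. An "at least" fold sets the brighter group's mean against the lowest signal detected on the arrays of the dim group. Arrays have no read depth, so their number and the signal over background limit precision. Promoter windows are RefSeq sequences. Python 3.11.15 and matplotlib 3.10.9 drew the figures.

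The members, the lists of relatives and of markers and the tests were chosen with earlier results of these data known. The genes named are the 9 members, called relatives (at most 4 by size per list), paralogs, and the genes most like the members in pattern. A few more, such as Cbr3, were named after their values were seen. Alternatives were no filter on dim probes, probes detected on all arrays, no background model (offset of 50), median scaling, the authors' processed table, a replicate block, a fit of only the groups compared, each array left out in turn and the mean over a gene's probes. A fit of replicates 1 and 2 only was added after the data were seen.

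The labels call the replicates biological. Same-numbered arrays deviated together from their group means (r of 0.30 to 0.58 for hypoxia against normoxia, 0.11 to 0.25 for the same with the inhibitor, 0.38 to 0.64 for the inhibitor in normoxia and 0.03 to 0.08 for the inhibitor in hypoxia). By the rule that each r exceed 0.1, the numbers were taken to pair all but the last, and the pairing comes from the data, as no label states what a number stands for.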

Additional observations from a re-analysis of the deposited data

How the results depend on the processing

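The signals of all 9 genes lay lower in hypoxia in both comparisons under every alternative that gave a value. Mdga2 has none with only probes detected on all arrays. Calls over all probes moved more. With the replicate block that the pairing calls for, calls numbered 258 for hypoxia with the inhibitor (125 without the block), 319 for hypoxia without it (148 without the block) and 0 for the averaged inhibitor effect (1 without the block), and no member was called for the inhibitor with the block. Where no alternative is named, the SEs, intervals and adjusted p-values of the report come from the limma fit without the block. With the block, the adjusted p with and without the inhibitor was 0.0291 and 0.0205 for Stx1a and 0.0205 and 0.132 for Espn. For Gpnmb it was 0.00134 and 0.00344, and for the averaged inhibitor effect on Mreg 0.587. With only the groups compared, calls numbered 33 for hypoxia with the inhibitor and 1 for the inhibitor in hypoxia. With replicates 1 and 2 only they numbered 1477 for hypoxia with the inhibitor, 1234 for hypoxia without it, 39 for the inhibitor in hypoxia, 15 in normoxia and 94 averaged. For the inhibitor in hypoxia they numbered 1 with no background model and 4 in the authors' processed table. With each array left out in turn, calls ran from 34 to 255 for hypoxia with the inhibitor, from 26 to 338 for hypoxia without it, from 0 to 3 for the inhibitor in hypoxia, from 0 to 1 in normoxia, from 0 to 7 averaged, and from 1353 to 3890 for replicate 3. The extremes for hypoxia without the inhibitor came without hypoxia replicate 1 (26) and without hypoxia with inhibitor replicate 3 (338). The averaged inhibitor effect turned its sign under median scaling for Whrn (0.0097), Dcxr (0.0291), Svop (0.0050) and Abca7 (0.0094), and with replicates 1 and 2 only for Cd55 (0.12), Whrn (0.14), Dcxr (0.0676) and Abca7 (0.0378). With single arrays left out it ran from -0.16 to 0.0806 for Cd55, -0.11 to 0.13 for Whrn, -0.0606 to 0.0768 for Dcxr, -0.0964 to 0.0875 for Svop and -0.0659 to 0.0219 for Abca7. Mdga1 with the inhibitor was -0.03 in the authors' processed table, and with single arrays left out ran from -0.10 to 0.33 with and from -0.0242 to 0.17 without the inhibitor. The changes of 2 members moved by more than the spread between replicates under another setting that kept every array: Mdga2 (values in the report) and Whrn with no background model (-0.97 with and -0.99 without the inhibitor for Whrn), and Mdga2 as the mean of its probes (-1.08 without the inhibitor). The cause was not tested. Signal over background limits Mdga2 most, as it lay near the detection limit in hypoxia.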
